A study of Mus musculus with 4 samples.

Results

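Oxidative phosphorylation genes were followed in the excitatory neurons of the mouse ventromedial prefrontal cortex, with the genes carried by the mitochondrial genome set apart from those carried in the nucleus. A gene was a member when its symbol named a mitochondrial subunit (mt-Nd, mt-Co, mt-Cytb or mt-Atp), a complex I subunit or Nduf-named assembly factor (Ndufa, Ndufb, Ndufc, Ndufs, Ndufv), one of Sdha to Sdhd, a Uqcr subunit, a Cox4 to Cox8 subunit, or an Atp5 subunit of ATP synthase, and when it held at least 50 unique molecular identifiers (UMIs, each standing for 1 captured transcript) over the 9368 neurons. Of the 31053 genes listed, 106 matched by symbol and 100 passed the minimum, which 15248 of all genes reached. The members were 13 mitochondrial-encoded and 87 nuclear-encoded genes: 38 named as complex I subunits, 8 complex I assembly factors, 4 of complex II, 8 of complex III, 13 of complex IV and 16 of complex V. The genes left out were paralogs known from muscle, testis or other tissues, Cox4i2 with 26 UMIs, Cox6a2 with 17, Cox6b2 with 16, Cox8b and Cox8c with 1 each, and a second identifier of Atp5o with 0. Cyc1, the cytochrome c1 subunit of complex III, carries another stem and was not a member.

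The electron transport chain of the inner mitochondrial membrane passes electrons from NADH (complex I) and succinate (complex II) through complex III to oxygen at complex IV, and pumps protons as it does so. Complex V, the ATP synthase, uses the returning protons to make ATP. All of these complexes except complex II are mosaics, with a few core subunits transcribed from the circular mitochondrial DNA as long polycistronic RNAs and the others transcribed in the nucleus and imported, and neurons draw most of their ATP from this chain to restore ion gradients after firing.

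All animals were male C57BL/6 mice injected with barcoded rAAV2-retro viruses encoding EGFP at 5 targets: the agranular insular cortex, the dorsomedial striatum, the mediodorsal thalamus, the basolateral amygdala and the lateral hypothalamus. The viruses label neurons through their axons, and 6 weeks later the prelimbic and infralimbic cortex was dissociated for droplet 3′ RNA sequencing. Cells of 3 mice were loaded without sorting as 3 libraries (unsorted replicates 1 to 3, with 2816, 2486 and 2463 neurons), and EGFP-positive cells of 3 other mice were pooled and sorted by flow cytometry into 1 library (sorted, 1603 neurons). The neurons fell into the authors' 7 clusters, named by layer and marker: L2/3-Calb1, L2/3-Rorb, L5-Bcl6, L5-Htr2c, L5-S100b, L6-Npy and L6-Syt6. The namesake gene of each cluster had its highest level there. The mice were 8 weeks old at injection. The cells were chosen partly on mitochondrial reads, since the authors removed cells with 20% or more of them as well as low-quality clusters rich in them, so the mitochondrial levels describe the neurons left after that choice. The median neuron held 31669 UMIs in the sorted library, against 21343.5 to 23213 without sorting, and a pair of libraries shared at most 4 neuron barcodes. Each value below is from counts summed over the neurons of 1 cluster in 1 library. The p-values measure only the spread between the 3 unsorted libraries, which may be partly technical, because the protocol text also describes 1 suspension loaded in several lanes.

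In the unsorted libraries the mitochondrial-encoded genes took between 6.10% and 8.33% of a cluster's UMIs and the nuclear-encoded members between 2.85% and 3.56%, and the clusters ranked differently for the 2 genomes. L5-Bcl6 and L6-Npy were highest for the mitochondrial share, at 8.33% ± 0.101 and 8.21% ± 0.0366 (SD, n = 3 libraries here and for the other shares), and their ranges overlapped. L5-S100b followed at 7.60% ± 0.160, then L2/3-Calb1 at 7.08% ± 0.0676 and L2/3-Rorb at 7.07% ± 0.144, then L5-Htr2c at 6.22% ± 0.129 and L6-Syt6 at 6.10% ± 0.0226. The libraries did not overlap at 3 steps of this order: L6-Npy over L5-S100b, L5-S100b over L2/3-Calb1, and L2/3-Rorb over L5-Htr2c.

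L6-Syt6 was highest for the nuclear share, with 3.41%, 3.54% and 3.73% in replicates 1 to 3 and a mean of 3.56% ± 0.161. L5-S100b was lowest, with 2.62%, 2.82% and 3.11%, a mean of 2.85% ± 0.249. Neighbouring clusters in the nuclear order overlapped except at 1 step, L2/3-Calb1 (3.31% ± 0.174) over L2/3-Rorb (2.88% ± 0.183). Much of this spread was shared within a library, since replicate 1 had the lowest and replicate 3 the highest nuclear share in 7 of 7 clusters. The top rank of L6-Syt6 depended on counting mitochondrial UMIs in the total. Of the UMIs that were not mitochondrial-encoded, its nuclear members took 3.63%, 3.77% and 3.97% in replicates 1 to 3. Those of L5-Bcl6 took 3.57%, 3.78% and 4.03%.

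**Figure D1:**
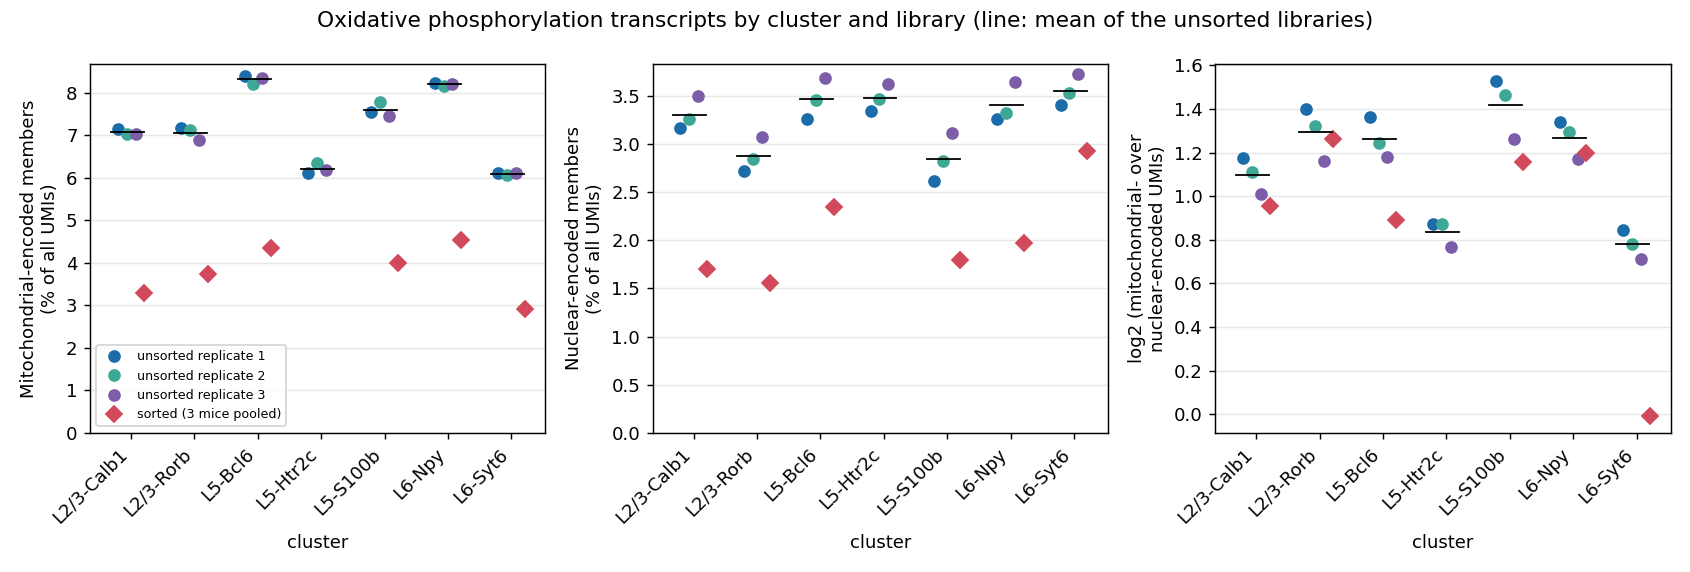
Mitochondrial-encoded share, nuclear-encoded share (both percent of all UMIs of a cluster's sum) and the log2 ratio of the first to the second, by cluster; each point is 1 library, and the bars mark the mean of the 3 unsorted libraries. L6-Syt6 has the lowest mitochondrial share (6.10%) and the highest nuclear share (3.56%) among the unsorted means, and the sorted points lie lower than the unsorted ones in both shares.

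The log2 ratio of mitochondrial to nuclear UMIs was 1.42 in L5-S100b and 0.78 in L6-Syt6, the highest and the lowest cluster. L5-S100b, L2/3-Rorb (1.30), L6-Npy (1.27) and L5-Bcl6 (1.26) formed a chain of overlapping ranges. L2/3-Calb1 (1.10) reached 1.177 in its highest library, which overlapped L2/3-Rorb (lowest 1.164) and L6-Npy (lowest 1.171). It did not overlap L5-Bcl6 (lowest 1.179) or L5-S100b (lowest 1.262). L2/3-Calb1 was separated from L5-Htr2c (0.84) and L6-Syt6.

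Individual mitochondrial genes followed the summed share broadly, but not at its low end. By their fitted log2 differences, 11 of the 13 were lowest in L5-Htr2c and 2 in L6-Syt6. At the high end, 6 were highest in L5-Bcl6, 6 in L6-Npy and 1 in L5-S100b. All 13 were called higher in L6-Npy than in the mean of the other 6 clusters and all 13 lower in L5-Htr2c and in L6-Syt6 (edgeR quasi-likelihood test with a library block, Benjamini-Hochberg adjusted p under 0.05 over 12850 genes, which is what "called" means throughout). Of all genes tested, 23.6% were called higher in L6-Npy, and 23.9% and 33.1% lower in L5-Htr2c and L6-Syt6. In L5-Bcl6 11 of the 13 were higher, against 20.7% of all genes, and in L5-S100b 10 were higher, against 30.2%. In the layer 2/3 clusters none was higher, with 8 lower in L2/3-Calb1 and 7 in L2/3-Rorb, against 20.8% and 20.9%. The 7 in L2/3-Rorb were 4 with library sizes taken without mitochondrial genes, with DESeq2 size factors or without replicate 3, and 3 with no library block. The medians of the 13 log2 differences were 0.26 in L6-Npy, 0.21 in L5-Bcl6, 0.11 in L5-S100b, −0.04 in L2/3-Rorb, −0.07 in L2/3-Calb1, −0.19 in L6-Syt6 and −0.30 in L5-Htr2c. As an example, mt-Nd1, a core membrane subunit of complex I, stood at 5375, 5256 and 5536 CPM (UMIs of the gene per 1000000 UMIs of the sum) in L5-Bcl6 and at 3517, 3497 and 3608 in L6-Syt6, with no overlap. The authors drew the clusters from the expression of these same cells, so these p-values describe agreement over libraries and are not an independent test that the clusters differ.

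Nearly all members differed somewhere among the clusters. A test over the 7 clusters called 98 of the 99 members tested, against 89.4% of all genes tested, and the exception was Cox7a1 (adjusted p = 0.076 by edgeR's quasi-likelihood F test). Ndufa4l2, with 248 UMIs in all, did not pass the filter on low counts. The differences were small, taking for each gene its log2 difference in a cluster from the mean of the other clusters. From its lowest to its highest such value, a nuclear member spanned a median of 0.70 and a mitochondrial one 0.56, beside 1.00 over all genes. These spans are somewhat wider than the direct difference between the lowest and the highest cluster. Of the 86 nuclear members tested, 45 were highest in L6-Syt6, 19 in L5-Bcl6 and 11 in L5-Htr2c, while 33 were lowest in L5-S100b and 32 in L2/3-Rorb.

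**Figure D2:**
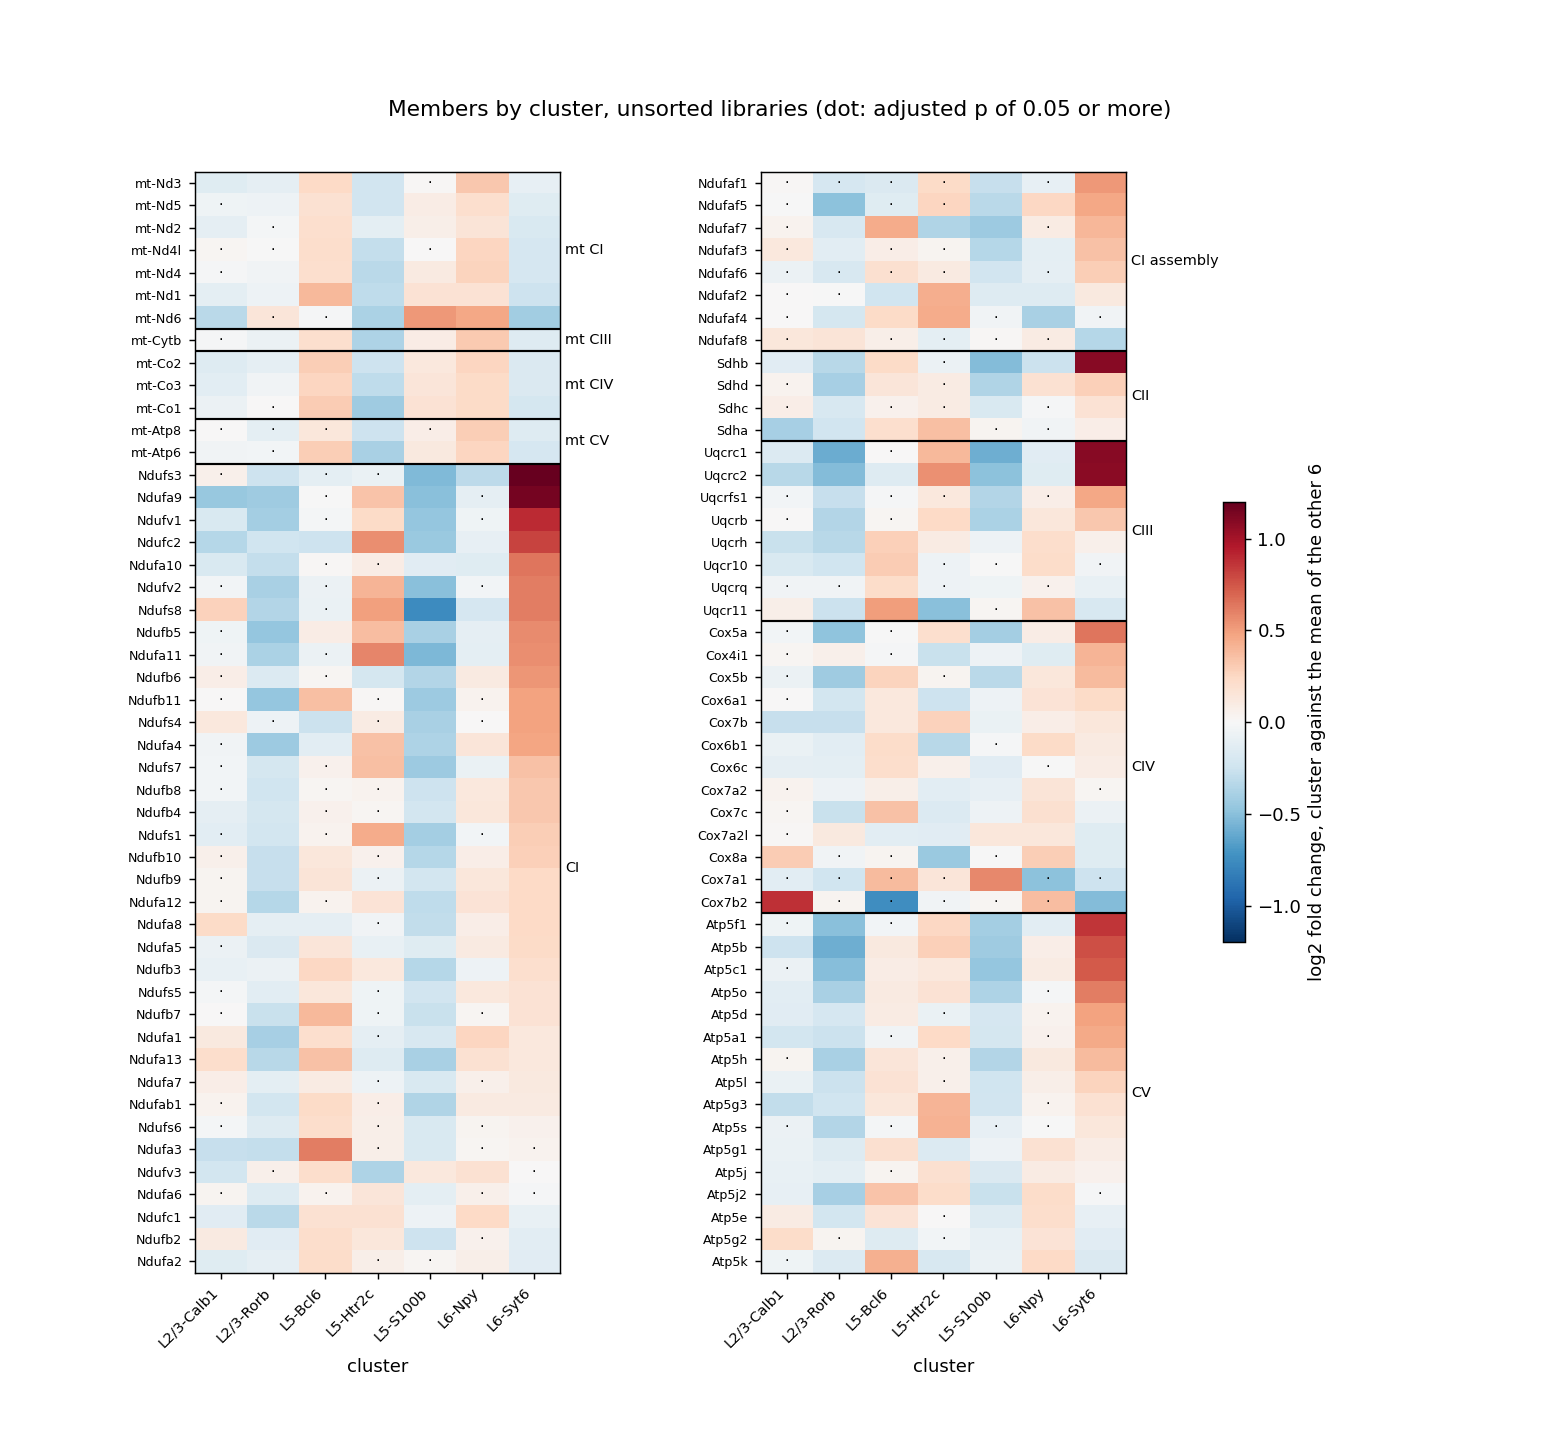
Log2 difference of the tested members (rows, by role, 1 complex I gene not shown) in each cluster (columns) from the mean of the other 6 clusters, unsorted libraries, as a colour scale. The L6-Syt6 column is above 0 for most nuclear members and below 0 for the 13 mitochondrial genes, and the L2/3-Rorb and L5-S100b columns are below 0 for most nuclear members.

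Counted by cluster, L6-Syt6 had 65 members higher (all of them nuclear) and 26 lower (13 nuclear and 13 mitochondrial), where 36.9% of all genes were called higher and 33.1% lower. L5-S100b had 13 higher and 73 lower, against backgrounds of 30.2% and 24.2%. All 73 of its lower members were nuclear, and 10 of the 13 higher ones were mitochondrial. L2/3-Rorb had 3 higher and 80 lower, against 23.9% and 20.9%. The count of 13 nuclear members lower in L6-Syt6 became 6 with no library block and 5 without the low-count filter.

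L5-Bcl6 had 56 members higher and 8 lower, against 20.7% and 18.6% of all genes, and L6-Npy had 54 higher and 16 lower, against 23.6% and 20.8%. L5-Htr2c was divided, with 35 higher, all nuclear, and 28 lower, against 23.1% and 23.9%. L2/3-Calb1 had 12 higher and 37 lower, against 21.2% and 20.8%. With the sorted library added to the fit, 29 members were higher in L6-Npy (16 of them nuclear, in place of 41), 3 were lower in L5-Bcl6 and 3 higher in L2/3-Calb1. The median log2 difference of the nuclear members was 0.24 in L6-Syt6, 0.10 in L5-Bcl6, 0.09 in L5-Htr2c, 0.07 in L6-Npy, −0.03 in L2/3-Calb1, −0.24 in L2/3-Rorb and −0.24 in L5-S100b, beside medians over all genes between 0.00 and 0.02.

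Genes named as complex I subunits were high in L6-Syt6 and low in L5-S100b and L2/3-Rorb. Of the 37 nuclear ones tested, 31 were higher and 3 lower in L6-Syt6 (median 0.29), whereas 1 was higher and 35 were lower in L5-S100b (median −0.31) and 0 were higher and 35 lower in L2/3-Rorb. The shares of all genes called higher and lower were 36.9% and 33.1% in L6-Syt6. They were 30.2% and 24.2% in L5-S100b and 23.9% and 20.9% in L2/3-Rorb. These shares also stand beside the counts by complex that follow.

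Ndufs3, a core subunit of the arm that faces the matrix (chr2:90894634-90904827, minus strand, GRCm38), was the nuclear member most raised in L6-Syt6. Its level there was 216, 214 and 207 CPM in replicates 1 to 3, against at most 120.0 in any other cluster and library. The log2 difference was 1.22 (SE 0.03, adjusted p = 9.2e-51 by edgeR).

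Ndufa9, a supernumerary subunit at the junction of the 2 arms, stood at 82.2, 81.8 and 86.4 in L6-Syt6 and at 31.0, 31.3 and 35.0 in L5-S100b, and was 1.15 higher in L6-Syt6 (SE 0.04). Ndufs8, an iron-sulfur subunit, was the nuclear member most lowered in L5-S100b, with 58.5, 59.1 and 71.2 there, 136, 137 and 135 in L6-Syt6 and 139, 139 and 143 in L5-Htr2c. Its log2 difference in L5-S100b was −0.75 (SE 0.04, adjusted p = 1.0e-25 by edgeR). For both genes the libraries of the high and the low clusters were far apart.

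Not every complex I gene kept to this order. Ndufa3, a small membrane-arm subunit, was highest in L5-Bcl6, with 206, 252 and 315 CPM and a log2 difference of 0.62 (SE 0.04), and in L6-Syt6 it stood at 148, 165 and 215, 0.05 from the mean of the other clusters (adjusted p = 0.066 by edgeR). In each of these clusters its level was lowest in replicate 1 and highest in replicate 3. Ndufa11 and Ndufc2, both membrane-arm subunits, were raised in L5-Htr2c by 0.59 (SE 0.04) and 0.55 (SE 0.04), and in L6-Syt6 by 0.56 and 0.82.

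Among the 8 assembly factors, which build complex I but are not part of it, 6 were higher and 1 lower in L6-Syt6 (median 0.33), and 6 were lower in L5-S100b. The lower one was Ndufaf8, with 53.7, 58.5 and 62.8 CPM in L6-Syt6 and a log2 difference of −0.35 (SE 0.03), and it was the most raised nuclear member of L2/3-Rorb by only 0.15 (SE 0.05). Ndufaf4 fell most in L6-Npy, by 0.39 on the log2 scale.

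Complex II, which is also the succinate dehydrogenase of the citric acid cycle and is entirely nuclear-encoded, was higher in L6-Syt6 for 4 of 4 genes, by very different amounts. Sdhb, its iron-sulfur subunit (chr4:140961203-140979193, plus strand), stood at 248, 242 and 239 CPM in L6-Syt6 and at 93.8, 92.9 and 103 in L5-S100b, a log2 difference of 1.09 in L6-Syt6 (SE 0.02, adjusted p = 2.6e-50 by edgeR). Sdha, the flavoprotein subunit, stood at 196, 200.3 and 200.1 in L6-Syt6 and at 202, 195 and 204 in L5-S100b. Its libraries overlapped between these clusters, its difference in L6-Syt6 was 0.08 (SE 0.02), and it was highest in L5-Htr2c at 282, 239 and 254. Sdhd and Sdhc, the membrane anchors, were 0.29 (SE 0.03) and 0.17 (SE 0.04) higher in L6-Syt6.

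In complex III, 5 of 8 genes were higher and 2 lower in L6-Syt6, against 36.9% and 33.1% of all genes. Uqcrc1, a large core protein of the matrix side (chr9:108936633-108949623, plus strand), stood at 183, 188 and 196 CPM in L6-Syt6 against at most 143 elsewhere, a log2 difference of 1.09 (SE 0.03, adjusted p = 1.1e-46 by edgeR), and it fell in L2/3-Rorb by 0.60 on the log2 scale and in L5-S100b by 0.58. Uqcr11, a very small subunit (chr10:80402997-80406830, minus strand), had the opposite order. It stood at 704, 783 and 886 in L5-Bcl6, at 644, 690 and 832 in L6-Npy, at 441, 492 and 582 in L6-Syt6 and at 394, 472 and 519 in L5-Htr2c. Its log2 differences were 0.51, 0.35, −0.19 and −0.51 (SE 0.02 or 0.03 each), all called by edgeR, although replicate 1 was lowest and replicate 3 highest in each of these 4 clusters.

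**Figure D3:**
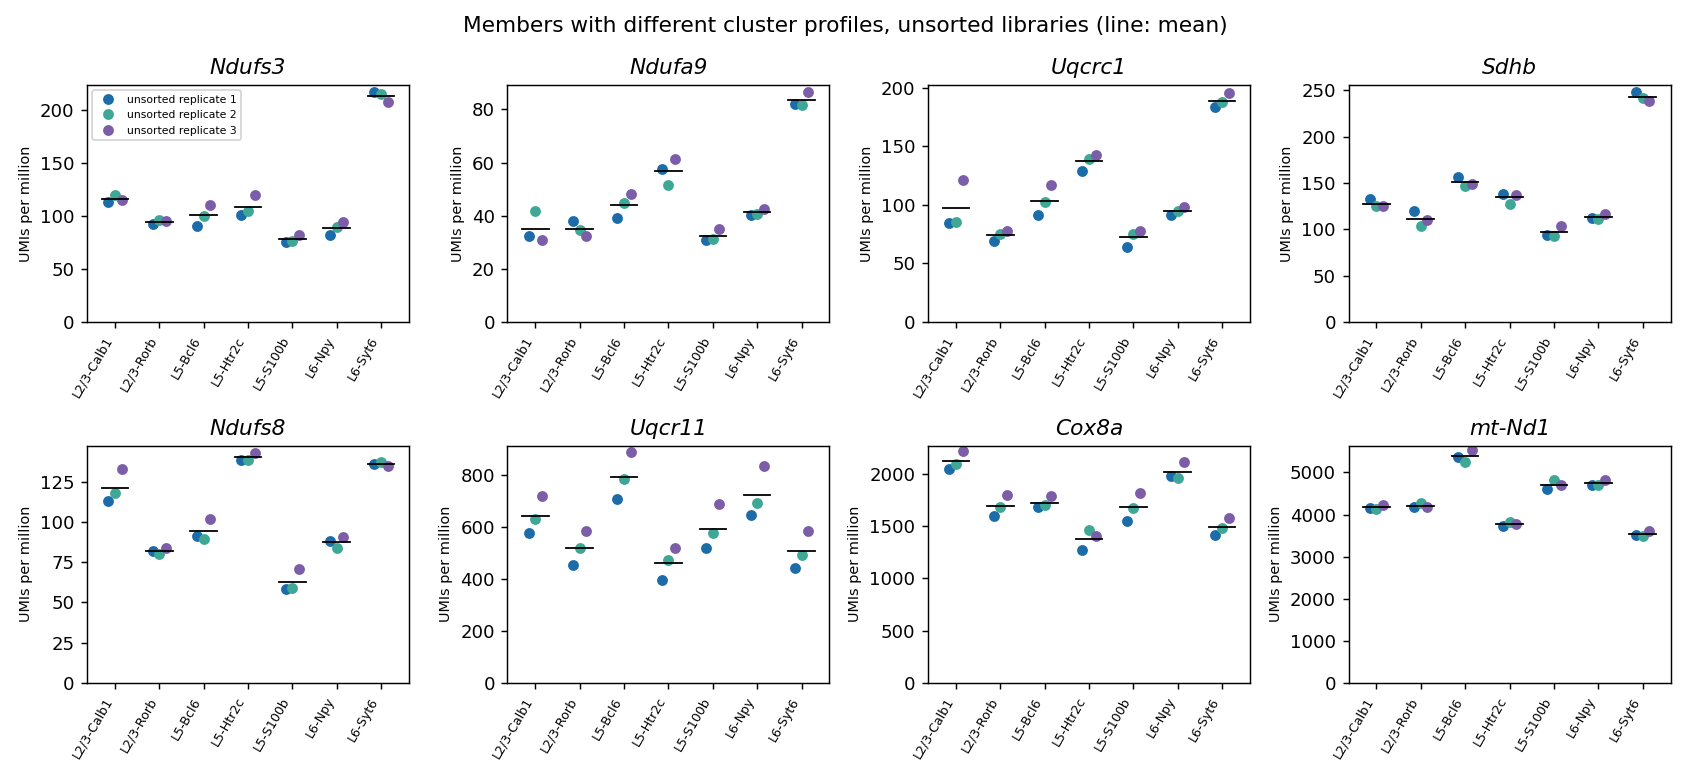
CPM (linear axes from 0) of 8 members in each cluster, 1 point per unsorted library, with their mean as a line. Ndufs3, Ndufa9, Uqcrc1 and Sdhb are highest in L6-Syt6, Ndufs8 reaches 143 in L5-Htr2c and 137 in L6-Syt6, and Uqcr11, Cox8a and mt-Nd1 are lower in L6-Syt6 than in L6-Npy.

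The proximal promoters of these 3 genes high in L6-Syt6 and of Uqcr11 were compared as examples of opposite patterns, chosen after the values were seen. Each window runs from 250 bases before to 50 bases after the RefSeq start on GRCm38.p6, 5′ to 3′ on the gene's own strand, and capitals mark matches to 3 motif cores known from respiratory gene promoters: NRF1 (GCGCATGC or GCATGCGC, which overlap in a palindrome), ETS, the family of GABP (CCGGAAG or CTTCCGG), and YY1 (AAGATGGC or GCCATCTT). Windows were Ndufs3 at chr2:90904672-90904971, Sdhb at chr4:140961021-140961320, Uqcrc1 at chr9:108936398-108936697 and Uqcr11 at chr10:80406772-80407071.
Ndufs3: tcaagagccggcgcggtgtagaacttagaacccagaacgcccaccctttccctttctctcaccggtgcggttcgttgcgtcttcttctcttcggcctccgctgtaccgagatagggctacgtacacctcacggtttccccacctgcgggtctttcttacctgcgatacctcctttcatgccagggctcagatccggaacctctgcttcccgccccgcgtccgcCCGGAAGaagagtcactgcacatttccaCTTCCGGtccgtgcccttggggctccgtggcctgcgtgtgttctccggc
Sdhb: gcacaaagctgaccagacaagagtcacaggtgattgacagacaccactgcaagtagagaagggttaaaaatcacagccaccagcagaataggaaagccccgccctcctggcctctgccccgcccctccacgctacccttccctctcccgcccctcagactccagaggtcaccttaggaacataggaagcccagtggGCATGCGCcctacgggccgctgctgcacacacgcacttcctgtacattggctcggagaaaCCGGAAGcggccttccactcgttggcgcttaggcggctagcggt
Uqcrc1: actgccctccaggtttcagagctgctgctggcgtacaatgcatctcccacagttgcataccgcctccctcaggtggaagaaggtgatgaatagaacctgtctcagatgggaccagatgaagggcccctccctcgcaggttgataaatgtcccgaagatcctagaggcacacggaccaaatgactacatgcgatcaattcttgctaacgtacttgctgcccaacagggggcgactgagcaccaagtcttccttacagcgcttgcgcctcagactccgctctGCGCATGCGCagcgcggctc
Uqcr11: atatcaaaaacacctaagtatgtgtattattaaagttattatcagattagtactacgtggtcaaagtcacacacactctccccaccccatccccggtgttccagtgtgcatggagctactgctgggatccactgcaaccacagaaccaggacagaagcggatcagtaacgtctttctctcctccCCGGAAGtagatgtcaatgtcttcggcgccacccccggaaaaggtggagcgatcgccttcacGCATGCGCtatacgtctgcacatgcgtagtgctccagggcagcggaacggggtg
Ndufs3 held ETS cores only, Uqcrc1 NRF1 cores only, and Sdhb and Uqcr11 an NRF1 and an ETS core each, so the gene low in L6-Syt6 carried the same 2 cores as Sdhb. Of the 87 nuclear members, 72 had a RefSeq window. The NRF1 core was in 12 of them (16.7%, against 3.05% of 27025 genes), the ETS core in 18 (25.0%, against 9.93%) and the YY1 core in 10 (13.9%, against 3.19%). The median log2 difference in L6-Syt6 was 0.24 with and 0.21 without the NRF1 core, 0.20 with and 0.24 without the ETS core, and 0.05 with and 0.24 without the YY1 core. A match describes these letters and not binding of a factor.

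Complex IV, cytochrome c oxidase, had different counts in different clusters. In L6-Syt6 7 of 13 nuclear genes were higher and 4 lower (median 0.09), in L5-Htr2c 3 were higher and 7 lower (median −0.13), and in L6-Npy 9 were higher and 1 lower. All genes were called higher and lower in shares of 36.9% and 33.1%, 23.1% and 23.9%, and 23.6% and 20.8% in the same order. The 4 lower in L6-Syt6 and the 3 higher in L5-Htr2c were near these shares. In L5-Htr2c the genes named as complex I subunits had 16 higher and 4 lower, so the members of the 2 groups were called mostly in opposite directions there. Cox8a, a small subunit of the oxidase, stood at 1277, 1468 and 1404 CPM in L5-Htr2c and at 1978, 1968 and 2117 in L6-Npy, with log2 differences of −0.44 (SE 0.03) and 0.30 (SE 0.02). Cox4i1, the ubiquitous isoform of subunit 4, was in contrast highest in L6-Syt6, at 1478, 1442 and 1431, by 0.41 (SE 0.02).

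Among the oxidase paralogs, Cox6a1 and Cox6b1 fell in L5-Htr2c by 0.24 (SE 0.05) and 0.34 (SE 0.03) on the log2 scale. The log2 differences of Cox7a2 and Cox7a2l lay between −0.14 and 0.15 in every cluster. Cox7a2l, named for its likeness to Cox7a2 and known for joining complexes III and IV into supercomplexes, was slightly raised in L5-S100b (0.14, SE 0.02) and L2/3-Rorb (0.12, SE 0.03), the clusters where most members fell. The muscle isoform Cox7a1 (445 UMIs in all) and the testis-type Cox7b2 (439 UMIs) were near the limit of detection. Cox7b2 led L2/3-Calb1 at 3.09, 4.43 and 3.39 CPM, and its difference of 0.87 carried an SE of 0.36 (adjusted p = 0.046 by edgeR).

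In complex V, 12 of 16 genes were higher and 3 lower in L6-Syt6 (median 0.22) and 15 were lower in L5-S100b. Atp5b, the catalytic beta subunit of the F1 head, stood at 658, 660 and 705 CPM in L6-Syt6, at 332, 327 and 363 in L5-S100b and at 307, 321 and 333 in L2/3-Rorb, a log2 difference of 0.78 in L6-Syt6 (SE 0.02, adjusted p = 8.0e-48 by edgeR) and −0.58 in L2/3-Rorb. The 3 genes for the identical mature c subunit of the membrane ring did not move together. Atp5g1 and Atp5g3 were 0.09 and 0.18 higher in L6-Syt6 while Atp5g2 was 0.13 lower on the log2 scale (−0.13), Atp5g3 led in L5-Htr2c (0.41, SE 0.03), and Atp5g2 led in L2/3-Calb1 (0.22, SE 0.04).

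Genes that feed or serve the chain were described from lists of their own. Beside their counts, the shares of all genes called higher and lower were 36.9% and 33.1% in L6-Syt6. They were 23.9% and 20.9% in L2/3-Rorb and 30.2% and 24.2% in L5-S100b. Of 21 glycolysis and lactate genes, 17 were higher and 2 lower in L6-Syt6 (median 0.55), among them Gapdh at 1.37 and Ldhb, the heart-type lactate dehydrogenase, at 1.21. Of 22 pyruvate dehydrogenase and citric acid cycle genes, 12 were higher and 8 lower in L6-Syt6, with Mdh1 (1.16) and Mdh2 (1.10), the malate dehydrogenases, highest and Cs, citrate synthase, at −0.07. The 8 lower were near the share of all genes. In L2/3-Rorb 14 of the 22 were lower and 0 higher. Of 21 genes of mitochondrial import, carriers and cristae, 16 were higher and 3 lower in L6-Syt6 (median 0.32), led by the adenine nucleotide translocases Slc25a5 (1.29) and Slc25a4 (1.01), while 3 were higher and 12 lower in L5-S100b.

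Of 12 genes of ATP use and buffering tested, 9 were higher and 1 lower in L6-Syt6, with the creatine kinases Ckb (1.14) and Ckmt1 (1.01) highest. Of the 21 genes of mitochondrial biogenesis and mitochondrial DNA expression, 5 were higher and 5 lower in L6-Syt6 (median −0.08). Both were smaller shares than the 36.9% and 33.1% of all genes called there. Esrrg, an oestrogen-related receptor, was at 1.81 there, and Ppargc1a, the coactivator PGC-1α, was at −0.50. A list of 22 immediate early and dissociation response genes was also higher in L6-Syt6 (21 higher, 1 lower, median 0.95) and in L6-Npy (18 higher, 1 lower), and lower in L5-Bcl6 (2 higher, 18 lower). Of all genes, 23.6% were higher and 20.8% lower in L6-Npy, and 20.7% and 18.6% in L5-Bcl6. The part of this list in the members' differences was not tested.

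The sorted library was lower in both shares in all 6 clusters with at least 40 sorted neurons, and by unequal amounts. The mitochondrial share was between 0.47 and 0.55 of the unsorted mean in each cluster. The nuclear share was 0.82 of it in L6-Syt6 (2.93% against 3.41% to 3.73%), but 0.63 in L5-S100b (1.79%), 0.58 in L6-Npy (1.97%), 0.68 in L5-Bcl6, 0.54 in L2/3-Rorb and 0.51 in L2/3-Calb1. The log2 ratio in L6-Syt6 was −0.01 in the sorted library and between 0.71 and 0.85 in the unsorted ones. With 1 sorted library against 3, no permutation of libraries can give a two-sided p below 0.5, so these shares carry no test, and the sort, the animals, the lane and the depth cannot be told apart.

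Gene by gene, edgeR fits in the 3 clusters with at least 200 sorted neurons assumed that the lone sorted library varied like the unsorted ones. In L6-Syt6 1 of 100 members was higher and 75 were lower in the sorted library, where 20.8% of all genes were called higher and 20.7% lower. In L5-S100b 2 were higher and 83 lower of 100, against 16% and 16.6%. In L6-Npy 1 was higher and 90 lower of 99, against 18.7% and 20.7%. Every member called higher was mitochondrial-encoded. The median of the nuclear members was −0.33 in L6-Syt6, −0.71 in L5-S100b and −0.96 in L6-Npy. For the mitochondrial genes these medians were −0.65, −0.55 and −0.47 in the same order, and for all genes they lay between −0.01 and 0.00. These 3 comparisons use the same sorted and unsorted libraries and are not independent of each other.

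The 13 mitochondrial genes did not fall alike, although they are transcribed as long common precursors. mt-Co3, a core subunit of complex IV, had the largest fall, from 12784, 12145 and 12203 to 3504 CPM in L6-Syt6, a log2 difference of −1.90, with −1.73 in L5-S100b and −1.70 in L6-Npy. mt-Cytb, the cytochrome b of complex III, fell by 1.55 in L6-Syt6, mt-Nd1 by 1.25, mt-Atp6 by 1.16 and mt-Co2 by 1.09 on the log2 scale. mt-Nd2 fell by 0.89, mt-Nd3 by 0.65, mt-Nd4 by 0.62, mt-Co1 by 0.61 and mt-Nd5 by 0.34 there, each called by edgeR in L6-Syt6. mt-Nd6, from the other strand, was at 21.6, 20.2 and 22.2 unsorted and 20.8 sorted, and was not called in any of the 3 clusters.

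mt-Atp8 was higher in the sorted library. In L6-Syt6 it stood at 47.6, 43.4 and 59.8 CPM unsorted and at 105 sorted (log2 difference 0.98, SE 0.12, adjusted p = 5.7e-05 by edgeR), and the differences in L5-S100b and L6-Npy were 1.13 and 1.04. mt-Nd4l was at 0.20, 0.34 and 0.20, called in L5-S100b. Both genes share bases with a neighbour on the same strand. mt-Atp8 (chrM:7766-7969) ends within mt-Atp6 (chrM:7927-8607), and mt-Nd4l (chrM:9877-10173) within mt-Nd4 (chrM:10167-11544), by 43 and 7 bases, so a read there belongs to both genes and how the reads were divided is uncertain. The shared stretches, given because mt-Atp8 and mt-Nd4l are the genes whose differences were above 0 in all 3 clusters, read as follows on the plus strand of GRCm38 (GENCODE transcripts).
mt-Atp8 with mt-Atp6, chrM:7927-7969: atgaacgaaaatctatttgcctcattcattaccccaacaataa
mt-Nd4l with mt-Nd4, chrM:10167-10173: atgctaa
As a share of all mitochondrial-encoded UMIs in the neurons of a library, mt-Co3 went from 20.2% ± 0.502 (SD, n = 3) to 12.1% in the sorted library and mt-Cytb from 10.5% ± 0.178 to 7.94%, while mt-Co1 went from 8.85% ± 0.231 to 12.9% and mt-Nd4 from 7.43% ± 0.0796 to 10.6%. mt-Atp6 (23.9% ± 0.289 and 23.8%) kept its share within the spread of the unsorted libraries.

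**Figure D4:**
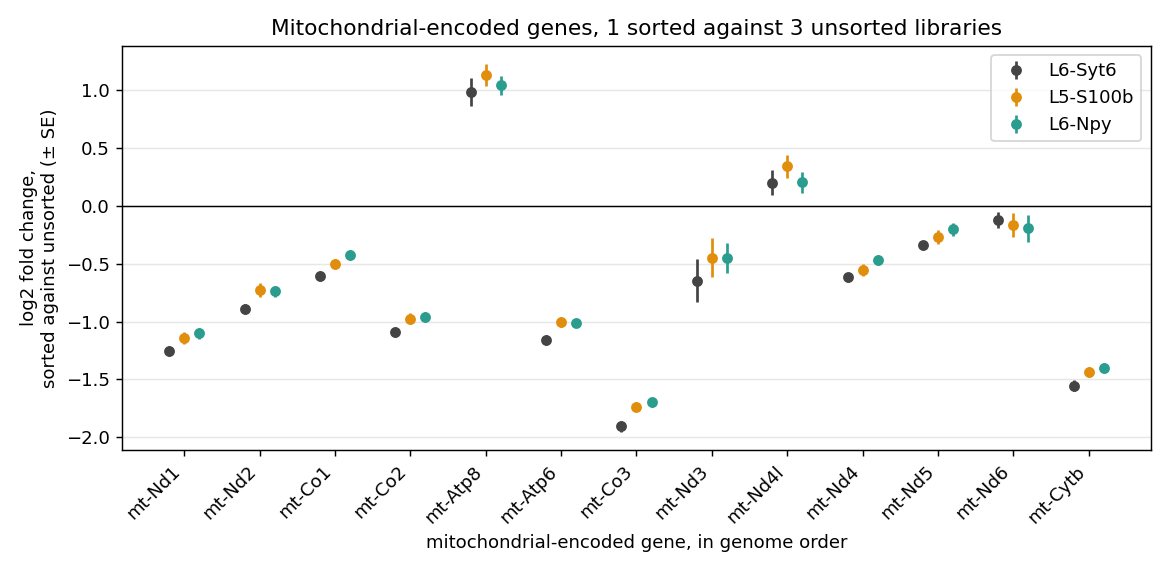
Log2 difference between the sorted and the unsorted libraries for the 13 mitochondrial-encoded genes in L6-Syt6, L5-S100b and L6-Npy, with the standard error as bars. mt-Co3 is lowest (−1.90 in L6-Syt6) and mt-Atp8 highest (0.98), in that cluster.

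In the nuclear members the size of the fall depended on the cluster. The 5 largest falls in L6-Syt6 were Ndufa11 (−0.68), Ndufv2 (−0.66), Cox4i1 (−0.64), Atp5g1 (−0.64) and Ndufs7 (−0.63). Their values were −1.52, −1.18, −0.71, −1.24 and −1.29 in L5-S100b and −2.40, −1.78, −1.06, −1.40 and −1.77 in L6-Npy. Ndufa11 went from 340.4, 349 and 374 CPM to 235 in L6-Syt6 and from 226, 243 and 273 to 51.3 in L6-Npy, outside the unsorted range in both.

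By role, the medians in L6-Syt6, L5-S100b and L6-Npy were −0.39, −0.77 and −1.18 for complex I, −0.28, −0.30 and −0.67 for its assembly factors, −0.33, −0.68 and −0.73 for complex III, −0.34, −0.71 and −0.68 for complex IV and −0.33, −0.82 and −0.96 for complex V. Complex II had the smallest medians, at −0.08, −0.09 and −0.30. Sdha stood at 199.1, 189 and 188 CPM in unsorted L6-Npy and at 195 in the sorted library, and Sdhc at 61.0, 51.3 and 61.8 and at 69.5, so neither lay below its unsorted range. Neither was called in any of the 3 clusters, whereas Sdhb fell by 0.15, 0.62 and 1.10 on the log2 scale, called in each.

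**Figure D5:**
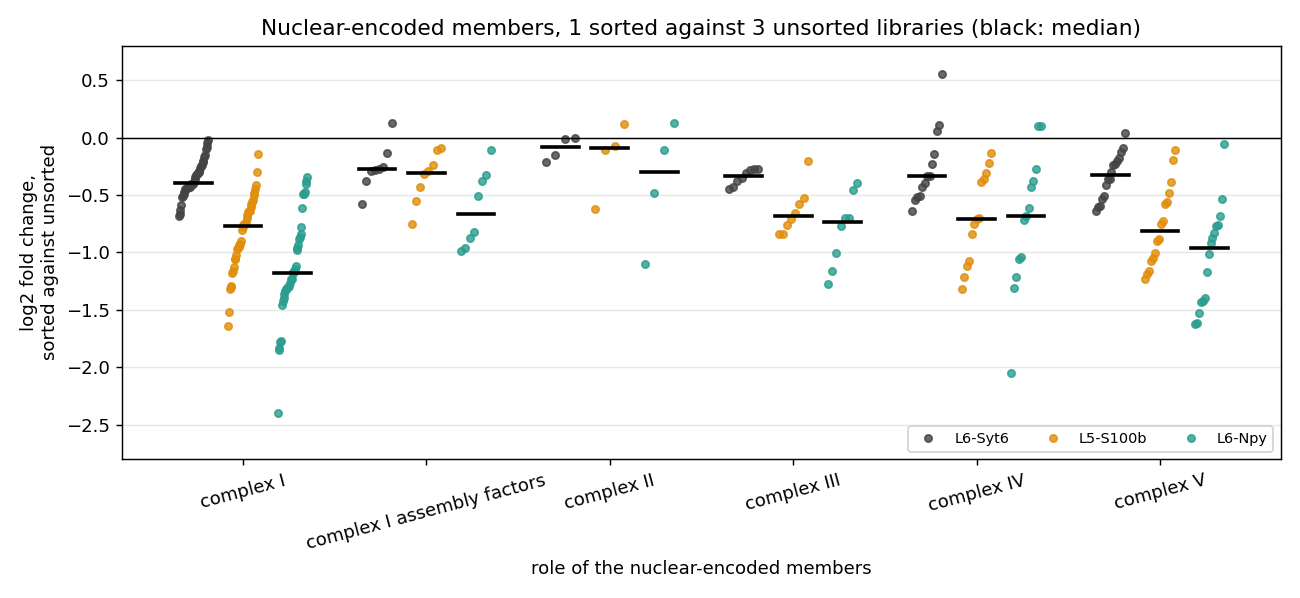
Log2 difference between the sorted and the unsorted libraries for the nuclear-encoded members by role, in L6-Syt6, L5-S100b and L6-Npy; each point is 1 gene. Complex I spreads lowest in L6-Npy, to −2.40 for Ndufa11, and the complex II genes lie nearest to 0.

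A fit for each pair of clusters, chosen after seeing the data, tested the difference of these differences. It again assumed that the lone sorted library varied like the unsorted ones. Between L6-Npy and L6-Syt6, 75 of 100 members had a larger fall in L6-Npy, all nuclear, against 9.22% of all genes in that direction. A further 10, all mitochondrial, had a smaller fall there, against 2.68%. Between L5-S100b and L6-Syt6, 62 members had a larger fall in L5-S100b, against 3.79%, and 4 a smaller one, against 1.5%. Between L6-Npy and L5-S100b, 37 of 99 were lower in L6-Npy, against 2.11%, and 1 was higher, against 1.3%. Complex I had 36 of its 38 genes in the first of these counts and complex V 15 of 16. Among neurons of 15000 to 35000 UMIs alone, the larger falls numbered 60 for L6-Npy over L6-Syt6, against 4% of all genes, 50 for L5-S100b over L6-Syt6, against 3.72%, and 5 for L6-Npy over L5-S100b, against 0.629%. The differences in the other direction there numbered 5 (3 mitochondrial and 2 nuclear), 8 (1 and 7) and 6 (2 and 4) in the same order, against 0.936%, 2.4% and 1.16%, where all neurons gave 10 and 4 mitochondrial ones in the first and second comparison.

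Other properties of the sorted library moved with these values. The median neuron of L6-Syt6 held 35701 UMIs sorted and from 22502 to 23820.5 unsorted, that of L5-S100b 33021 and from 23624 to 27200.0, and that of L6-Npy 25488 and from 19031 to 20812. Malat1, a nuclear-retained RNA, took 1.74% of UMIs in sorted L6-Syt6 against 1.41% to 1.57%, and 3.02% in sorted L6-Npy against 1.92% to 2.20%. Ribosomal protein genes took 4.58% in sorted L6-Syt6 against 4.98% to 5.37%. Among neurons of 15000 to 35000 UMIs alone (321 of the 773 sorted L6-Syt6 neurons, 173 of 313 in L5-S100b and 262 of 281 in L6-Npy), 81, 84 and 89 members were lower, against 22.6%, 15.8% and 19.1% of all genes. The nuclear medians among them were −0.57, −0.81 and −0.95, so the fall in L6-Syt6 was larger than over all its neurons (−0.33). The part of RNA quality was not tested.

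In L6-Syt6, markers of other cells were low in both kinds of library and lower after sorting. The 8 microglial markers summed to between 28.6 and 29.3 CPM in unsorted L6-Syt6 and to 12.0 sorted, with all 8 called lower and none at 0. The 8 oligodendrocyte markers went from 50.9 to 52.2 down to 32.7, with 8 lower and Olig2 at 0. The 6 astrocyte markers went from 22.0 to 23.3 down to 15.3 (3 of 3 tested lower), the 7 endothelial and mural markers from 28.3 to 29.0 down to 18.8 (5 of 6 lower) and the 8 inhibitory neuron markers from 12.2 to 13.2 down to 3.50 (5 of 7 lower). The 6 excitatory neuron markers summed to between 1941 and 1977 unsorted and to 2272 sorted. The fall of the oligodendrocyte markers was not seen in every cluster. Their sum was 99.2 in sorted L6-Npy (85.1 to 97.2 unsorted), 140.4 in L5-Bcl6 (117.6 to 133.6) and 66.2 in L2/3-Calb1 (56.1 to 62.0). It was within the unsorted range in L5-S100b (130.4, against 129.8 to 133.3) and below it in L2/3-Rorb (69.2, against 74.3 to 83.2).

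Within a cluster the neurons themselves varied. In unsorted L6-Syt6 the nuclear share of single neurons had a 10th percentile of 2.89% to 3.21% and a 90th of 3.84% to 4.21%, and in the sorted library these were 1.63% and 3.54% around a median of 3.02%. L5-S100b of unsorted replicate 1 had a low tail too, with a 10th percentile of 1.31% against 2.22% and 2.56% in replicates 2 and 3. Across the 773 sorted L6-Syt6 neurons the nuclear share correlated with a neuron's UMIs at a Spearman rho of 0.44 and the mitochondrial share at −0.45, beside 0.04 to 0.11 and −0.21 to −0.15 in the unsorted libraries. These neurons share 1 library and the shares have the UMI total as their denominator, so the coefficients are descriptions.

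The energy lists moved unequally in the sorted library, where the shares of all genes called were those given above for each cluster (20.8% higher and 20.7% lower in L6-Syt6, 16% and 16.6% in L5-S100b, 18.7% and 20.7% in L6-Npy). Glycolysis had 2 higher and 11 lower of 20 tested in L6-Syt6, 2 and 10 of 21 in L5-S100b and 3 and 11 of 21 in L6-Npy, where Gapdh was at −2.17 and Ldhb at −1.54 while the glucose transporter Slc2a3 was at 0.56. Import and carrier genes had 3 higher and 10 lower of 21 in L6-Syt6, 1 and 9 in L5-S100b and 1 and 14 in L6-Npy. Citric acid cycle genes had 4 higher and 8 lower of 21 in L6-Syt6, 2 and 7 of 22 in L5-S100b and 2 and 10 of 21 in L6-Npy, with the dehydrogenase subunit Ogdh at 0.52 and the ligase subunit Suclg1 at −1.68 in L6-Npy. The genes of ATP use and buffering were divided, with 4 higher and 5 lower of 13 in L6-Syt6, 4 and 4 of 12 in L5-S100b and 5 and 4 of 12 in L6-Npy. The biogenesis list had 1 higher and 2 lower of 21 in L6-Syt6 and in L5-S100b and 2 and 3 in L6-Npy, smaller shares than those of all genes.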

How the data were processed

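The authors aligned 10x Chromium 3′ v3 reads with Cell Ranger to mm10 and deposited raw UMI counts per gene and cell for 3 unsorted libraries and 1 sorted library. They filtered, clustered and annotated the cells with Seurat (3.1.4 in the submitters' processing notes, which also name Scanpy 3.0.46), and deposited metadata with cluster names, projection calls and a per-cell percent of mitochondrial UMIs, which was not used here because it was recomputed from the counts. Members and gene lists were chosen with earlier results of these data known.

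Counts of the 9368 annotated neurons were summed per library and cluster, leaving out the viral barcode feature (0.0319% to 0.0384% of UMIs). Doublets were not called again. Sums were tested with edgeR 4.0.16 (TMM, filterByExpr, quasi-likelihood F test) in R 4.3.3 over all genes, with Benjamini-Hochberg adjustment and a call at adjusted p under 0.05. Clusters were compared over 21 unsorted sums with library as a block, since the 7 sums of a library come from the same animal and lane, and each cluster was set against the mean of the other 6. The correlation of deviations between sums of the same library had medians of 0.0397, 0.0203 and 0.0295, against values below 0 between libraries. Deviations from a mean of 3 libraries sum to 0, so the sign between libraries gives no support of its own. Sorted and unsorted libraries were compared in clusters with at least 200 sorted neurons, and L5-Htr2c, with 4, was left out. Levels are counts per 1000000 UMIs of a sum (CPM). They are not compared between genes, because 3′ capture differs from gene to gene. Shares carry the SD over 3 libraries. The genes named are the 13 mitochondrial-encoded ones, the 3 nuclear members most raised and most lowered in each cluster, the 5 in sorted L6-Syt6, and paralog families, apart from those said to be chosen after their values were seen and from 1 gene that is not reported here by name, though it stays in the counts. The fits were tested on simulated data. Alternatives were DESeq2 1.42.0, its size factors, library sizes without mitochondrial genes, no low-count filter, no block, the sorted library added, each library left out, neurons of 15000 to 35000 UMIs, and shares as medians over cells. Gene coordinates are from GENCODE on GRCm38 and promoters from RefSeq GRCm38.p6.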

Additional observations from a re-analysis of the deposited data

Results flagged for a closer look

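The difference between the 1 sorted library and the unsorted libraries was not the same in each cluster. This was called by a fit that assumed the sorted library varied like the unsorted ones (edgeR quasi-likelihood test for each pair of clusters, Benjamini-Hochberg adjusted p under 0.05). From L6-Syt6 to L6-Npy it was lower for 75 of 100 members, all nuclear-encoded, against 9.22% of all genes, and higher for 10, all mitochondrial-encoded, against 2.68%. From L6-Syt6 to L5-S100b it was lower for 62 members, against 3.79%, and higher for 4, against 1.5%. From L5-S100b to L6-Npy it was lower for 37 members, against 2.11%, and higher for 1, against 1.3%. Among neurons of 15000 to 35000 UMIs, 60, 50 and 5 were lower in these comparisons, and 5, 8 and 6 were higher, of which 3, 1 and 2 were mitochondrial-encoded. All 3 tests rest on the same sorted library, so they cannot tell whether another sorted library would differ in the same way.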

How the results depend on the processing

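Between clusters, and between sorted and unsorted libraries of a cluster, no member's call turned into a call in the other direction under the alternatives run, and no permutation of 1 sorted library against 3 could reach the threshold. Small counts moved most. Without a low-count filter, 5 members were higher in L2/3-Calb1 (12 in the report) and 16 lower in L6-Syt6 (26 in the report), and 5 of the 91 calls in L6-Syt6 changed sign there without being called. The median of all genes moved to 0.15 in that fit, with 6396 genes higher and 3004 lower in place of 4739 and 4247. With no replicate block, 5 members were higher and 22 lower in L2/3-Calb1, 1 was higher in L2/3-Rorb and 17 were lower in L6-Syt6, and split by origin it gave 16 nuclear members lower in L2/3-Calb1 (29 in the report's fit), 29 higher in L5-Bcl6 (45), 1 higher in L5-S100b (3), 6 lower in L6-Syt6 (13) and 3 mitochondrial genes lower in L2/3-Rorb (7). The last count was 4 with library sizes without mitochondrial genes, with DESeq2 size factors and without replicate 3. With the sorted library added, chosen after seeing the data, 3 members were higher in L2/3-Calb1, 3 lower in L5-Bcl6, 29 higher in L6-Npy and 17 lower in L6-Syt6, of which 3, 3, 16 and 4 were nuclear, and 3 mitochondrial genes were lower in L2/3-Rorb. Without a low-count filter 5 nuclear members were lower in L6-Syt6. DESeq2 called 1 member higher in sorted L5-S100b (2 in the report). Leaving out 1 unsorted library at a time gave 7 to 9 members higher in L2/3-Calb1 (7 without replicate 1), 5 to 7 lower in L5-Bcl6 (5 without replicate 1 or 3), 1 to 3 higher in sorted L6-Syt6 (3, 1 of them nuclear, without replicate 3) and 1 to 2 in sorted L6-Npy (2 without replicate 3), and 0 to 10 with a higher difference from L5-S100b to L6-Npy (10 without replicate 1, 0 without replicate 2 or 3). Among neurons of 15000 to 35000 UMIs, 5 members had a higher difference from L6-Syt6 to L6-Npy and 8 from L6-Syt6 to L5-S100b, and from L5-S100b to L6-Npy 6 had a higher and 5 a lower one. The mitochondrial genes among the higher ones numbered 3 (10 over all neurons), 1 (4) and 2 (0). That setting changed both the depth and the number of neurons. The cause of these moves was not tested.

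As medians over cells, the mitochondrial share was 6.92% in L2/3-Rorb, 8.17% in L5-Bcl6, 6.02% in L5-Htr2c, 7.42% in L5-S100b and 5.89% in L6-Syt6, and sorted minus unsorted it was −3.85 points in L5-Bcl6 and −3.16 in L6-Syt6. The nuclear difference in L5-Bcl6 was −1.37 points, the log2 ratio in L5-Htr2c 0.76, and the sorted minus unsorted log2 ratio 0.14 in L2/3-Rorb (of the opposite sign to the value from sums), −0.25 in L5-Bcl6, −0.11 in L5-S100b and −0.91 in L6-Syt6. Among neurons of 15000 to 35000 UMIs, the mitochondrial share was 6.35% in L5-Htr2c and 6.07% in L6-Syt6, its difference in L6-Syt6 −2.95 points, the nuclear differences −1.42 in L5-Bcl6 and −0.91 in L6-Syt6, and the log2 ratio differences −0.17 and −0.54 in these clusters. Of the UMIs that were not mitochondrial-encoded, the nuclear members took 3.56% in L2/3-Calb1, 3.10% in L2/3-Rorb, 3.79% in L5-Bcl6, 3.71% in L5-Htr2c, 3.72% in L6-Npy and 3.79% in L6-Syt6, with sorted minus unsorted differences of −1.80 points in L2/3-Calb1 and −1.65 in L6-Npy. The remaining counts of members, and of nuclear and mitochondrial ones apart, stayed within 1.5 times, and the remaining shares and ratios within 1 SD of the libraries.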
